A study of Rattus norvegicus with 8 samples.

Results

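The miR-290 to miR-295 cluster was examined in rat C6 cells, a glial tumour line, treated with 1 of 3 antipsychotic drugs or left untreated. Its members were taken by name: every array entry for rat miR-290, miR-291a, miR-291b, miR-292, miR-293, miR-294 and miR-295, any arm. This gave 11 of the 719 miRNAs on the array. miR-290 itself had been singled out because its signal was higher under all 3 drugs, so its own differences from control are given as a description, without a test. The other 10 members were chosen by their place in the cluster and not by their own values, although earlier results of these data were known.

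The cells received haloperidol (2 µg/ml), a first-generation antipsychotic, risperidone (4 µg/ml) or clozapine (25 µg/ml), both second-generation drugs, daily for 5 days, and the controls were untreated C6 cells. All groups were grown in medium with horse and fetal bovine serum. Each group had 2 arrays, called biological repeats in the design text, which makes 8 arrays of Cy3-labelled total RNA. All arrays sat on 1 slide, with the replicate number as the row and the treatment as the column, so slide column and treatment cannot be told apart. In whole-culture RNA, fewer cells with a miRNA and less of it per cell cannot be told apart either. miR-21-5p, miR-125b-5p and miR-23a-3p, abundant in glioma and glial cells, were detected on 8 of 8 arrays, and the neuronal miR-124-3p on 0. Of 7 array miRNAs listed as neuronal, 3, all miR-129 arms, were detected on all 8 arrays.

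In the mouse, the cluster is transcribed as a single long precursor in embryonic stem cells and the early embryo, and is silenced as cells differentiate. Most of its dominant products carry the motif AAGUGC near the 5′ end. That motif lies in the seed, the stretch of a miRNA that pairs with its targets, and in mouse stem cells these miRNAs favour rapid passage through the cell cycle. Several of the 5′ arms carry another motif, CUCAAA, and miR-290 as named on this array is such a 5′ arm.

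The sequences below show the 5 members with CUCAAA within their first 8 bases, because miR-290 is one of them. Among the members, the others in this list share the longest runs with it. Capitals mark the seed, bases 2 to 8.
miR-290: uCUCAAACuaugggggca
miR-292-5p: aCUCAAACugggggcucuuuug
miR-293-5p: aCUCAAACugugugacacuuu
miR-294: cUCAAAAUggaggcccuaucu
miR-295-5p: aCUCAAAUguggggcacacuucu
miR-290, miR-292-5p and miR-293-5p share 1 seed, CUCAAAC. The longest run shared with miR-290 was 8 bases, CUCAAACU, in miR-292-5p and miR-293-5p, and no other array miRNA with a RefSeq sequence exceeded 7 bases. All 5 array miRNAs with CUCAAA in the first 8 bases, of 641 with a sequence (0.780%), were members of the cluster.

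The next lines show the 4 members with AAGUGC within their first 8 bases, the motif for which the cluster is known in stem cells, again with bases 2 to 8 in capitals.
miR-291a-3p: aAAGUGCUuccacuuugugugcc
miR-291b: aAAGUGCAuccauuuuguuagu
miR-292-3p: aAGUGCCGccagguuuugagugu
miR-295-3p: aAGUGCUAcuacuuuugggugu
The remaining members were miR-291a-5p, the other arm of miR-291a-3p, and miR-293-3p, the other arm of miR-293-5p. The hairpin of miR-290 lies at chr1:74880055-74880135 on the minus strand, and is printed here with the mature miRNA in capitals because its opposite arm has no entry of its own among the members.
Mir290 hairpin: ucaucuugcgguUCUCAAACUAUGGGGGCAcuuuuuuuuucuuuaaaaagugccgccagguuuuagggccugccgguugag
Bases 48 to 64 of this hairpin are identical to the first 17 bases of miR-292-3p. All sequences and positions are those of RefSeq on the GRCr8 assembly, on which all 11 members had a mature sequence.

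RefSeq places 7 hairpins of the cluster within 2163 bases of the minus strand, at chr1:74877973-74880135, in the 5′ to 3′ order Mir290, Mir291a, Mir292, Mir291b, Mir293, Mir294 and Mir295-1. Mir290 is therefore the first hairpin of the cluster and Mir291a starts 297 bases after it. A second hairpin of identical sequence to Mir295-1, Mir295-2, lies on the plus strand at chr1:82352152-82352232, and the array cannot separate the 2 copies. Of these hairpins, Mir290 was the 1 with a product detected on all 8 arrays. Mir291b and Mir294, like Mir290, had 1 array entry each, so the other arm of each had no entry of its own.

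**Figure D1:**
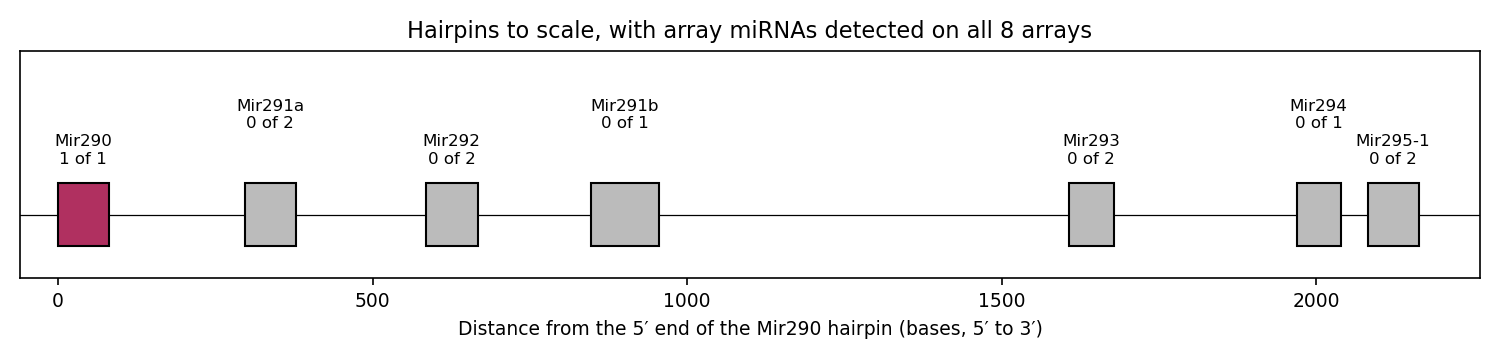
The 7 hairpins of the cluster are drawn to scale by distance in bases from the 5′ end of the Mir290 hairpin, with the number of array miRNAs from each that were detected on all 8 arrays. The red hairpin, Mir290, has 1 of 1, and the 6 grey hairpins have none.

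miR-290 was measured by 2 probes, each printed as 10 spots per array. All 160 of its spots over the 8 arrays were well above background, and the deposited gene-level call was "detected" on every array. Probe A_26_P00003359 had a mean background-subtracted signal of 216.5 ± 8.3 and 109.8 ± 3.83 intensity units under haloperidol (SD over spots), 190.2 ± 7.62 and 61.8 ± 2.16 under risperidone, and 75.1 ± 3.53 and 67.9 ± 2.53 under clozapine, in replicates 1 and 2, against 36.9 ± 4.79 and 65.8 ± 4.36 in the controls. Probe A_26_P00003360 gave 219.3 ± 6.83 and 111.4 ± 3.64 under haloperidol, 188.6 ± 5.05 and 63.6 ± 2.81 under risperidone, and 76.8 ± 2.2 and 68.0 ± 4.71 under clozapine, against 35.4 ± 3.11 and 65.3 ± 3.06 in the controls. Both probes thus placed the 8 arrays in almost the same way: haloperidol replicate 1 and risperidone replicate 1 were brightest and control replicate 1 was dimmest. The ratio of the second probe to the first stayed between 0.959 and 1.03 on all arrays, and the coefficient of variation among the spots of a probe was 2.68% to 13.0%.

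These unscaled signals also show that the replicates of a drug were not alike. In replicate 2, risperidone and clozapine lay level with the control on both probes, whereas haloperidol was higher. The arrays themselves differed in brightness. The 75th percentile of the signal, taken from 291 probes that were well above background on every array, was 1480 and 961 under haloperidol, 1091 and 388 under risperidone and 796 and 689 under clozapine, against 1042 and 955 in the controls. Risperidone replicate 2 was thus the dimmest array by this measure, and each array was divided by its own percentile before the comparison.

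After summing the probes and scaling, a level of 0 on the log2 scale is the array's 75th percentile. miR-290 was at -1.76 and -2.12 under haloperidol, -1.53 and -1.63 under risperidone and -2.39 and -2.34 under clozapine, against -3.85 and -2.87 in the controls. All 6 drug arrays lay above both control arrays, and the control arrays differed more from each other than did the replicates of any drug. The group means were -1.94 ± 0.25 under haloperidol, -1.58 ± 0.07 under risperidone and -2.37 ± 0.03 under clozapine, against -3.36 ± 0.69 in the controls (SD, n = 2 each). In descending order of level the groups were risperidone, haloperidol, clozapine and control. The step from haloperidol up to risperidone was 0.36 and that from clozapine up to haloperidol 0.42, each close to the standard error of a difference of 0.34, and the drugs were given at different doses, so the order among the drugs is not resolved. Clozapine, the lowest drug group, lay 0.99 above control.

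**Figure D2:**
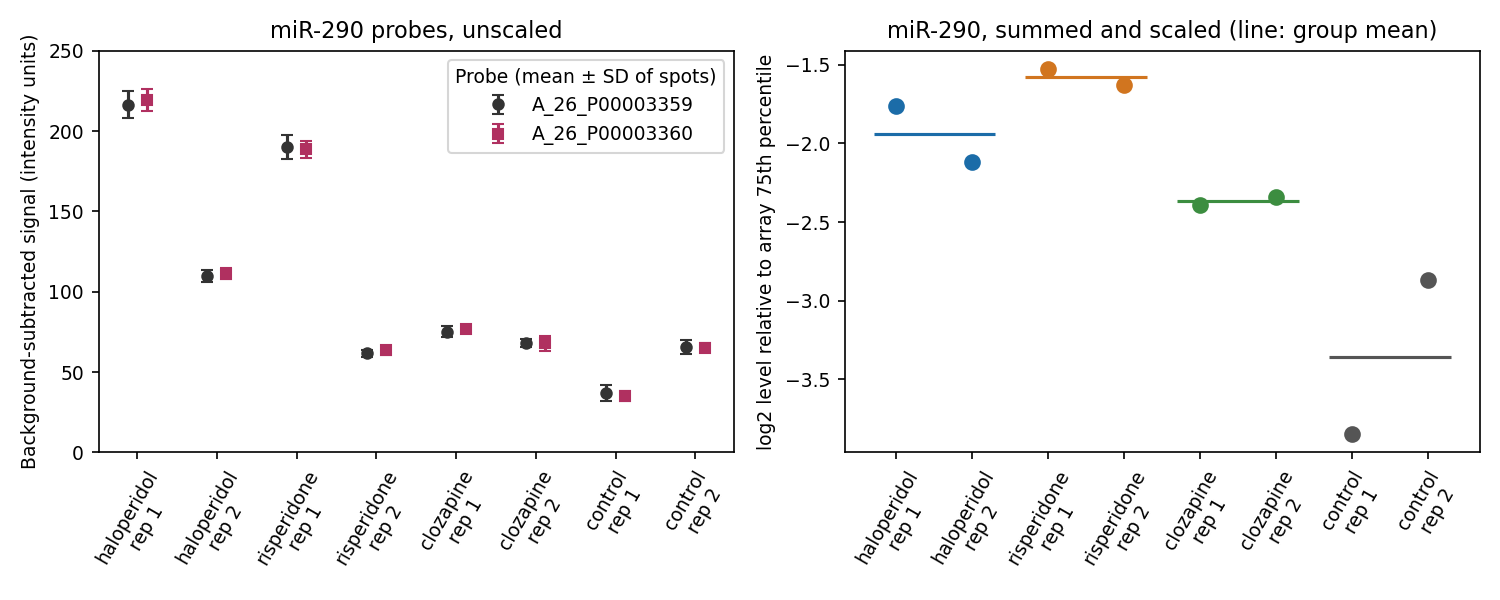
Left, the mean background-subtracted signal in intensity units of the 2 miR-290 probes on each of the 8 arrays, with bars for the SD over spots. Right, the log2 level summed over the probes and scaled to the array's 75th percentile, with a line at each group mean. The 2 probes coincide on every array. After scaling, the drug arrays lie between -2.39 and -1.53 and the control arrays at -3.85 and -2.87.

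The fitted log2 fold change of miR-290 against control was 1.42 under haloperidol (2.67-fold), 1.78 under risperidone (3.43-fold) and 0.99 under clozapine (1.99-fold), each with a standard error of 0.34 and n = 2 per group. The 3 comparisons share the same control arrays. Over all 243 miRNAs tested the median log2 fold change was -0.15, -0.15 and -0.17 under the 3 drugs. No tested miRNA had a larger value than miR-290 under haloperidol or risperidone, and 5 had a larger value under clozapine. Because miR-290 was chosen for its higher signal under the drugs, nothing is read from this rank. Taken separately, probe A_26_P00003359 gave 1.39, 1.75 and 0.96, and probe A_26_P00003360 gave 1.44, 1.81 and 1.02, so that the probes differed by at most 0.06 on the log2 scale. The probes were hybridised to the same samples on the same arrays and are not replicates of the treatment. Their sequences were not used here, so whether they also read longer forms, the opposite arm or another RNA was not tested.

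For scale, both drug arrays lay above both control arrays for 11.5% of tested miRNAs under haloperidol, 7.0% under risperidone and 5.35% under clozapine. All 6 drug arrays lay above both control arrays for 4 of 243 miRNAs (1.65%), namely miR-290, miR-21-3p, miR-338-3p and miR-487b-3p, the last 3 named after their values were seen. Since miR-290 was chosen for this pattern, nothing is read from its place among them. In limma with Benjamini-Hochberg adjustment over all 243 miRNAs, 0 (0.0%) passed an adjusted p of 0.05 under each drug, while 16 (6.58%) had an unadjusted p below that value under haloperidol, 21 (8.64%) under risperidone and 36 (14.8%) under clozapine. Both drug arrays lay below both control arrays more often than above, for 32.1%, 32.9% and 33.7% of tested miRNAs under the 3 drugs.

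The size of the miR-290 difference varied with the row of the slide, which is also the replicate number. In row 1 the scaled drug-minus-control difference was 2.08 under haloperidol, 2.32 under risperidone and 1.46 under clozapine, on the log2 scale. In row 2 it was 0.75, 1.24 and 0.52. It was above 0 in both rows for every drug after scaling, and smaller in row 2 each time. Without scaling, the row 1 differences were 2.59, 2.39 and 1.07 and the row 2 differences were 0.75, -0.06 and 0.05. For risperidone and clozapine in row 2, the higher level of miR-290 was therefore present after the arrays were scaled and absent from the raw signal. The median tested miRNA in row 2, unscaled, was at -1.45 under risperidone and -0.69 under clozapine.

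Control replicate 1 weighed on all 3 comparisons. miR-290 was 0.98 higher on control replicate 2 than on control replicate 1, where the median absolute difference over the tested miRNAs was 0.43 and 33 of 243 differed by more. Without control replicate 1 the log2 fold changes were 0.92, 1.29 and 0.50 under haloperidol, risperidone and clozapine, and without control replicate 2 they were 1.91, 2.27 and 1.48.

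**Figure D3:**
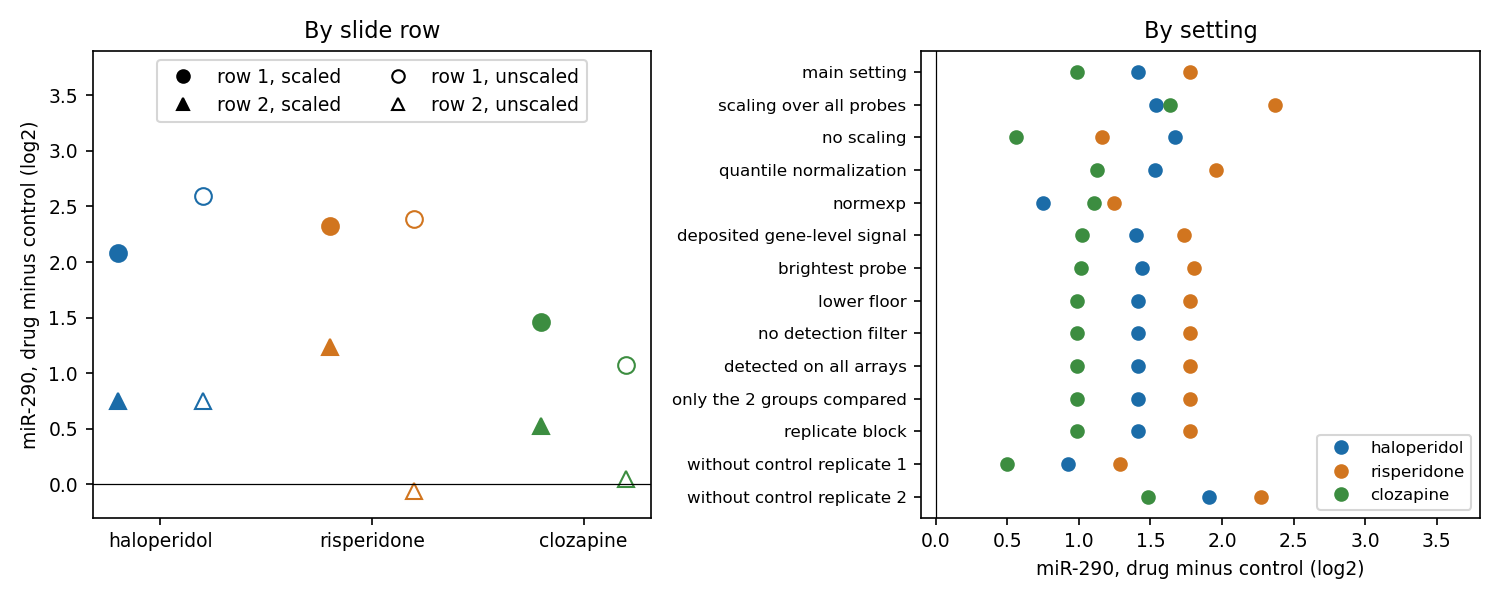
Left, the miR-290 difference, drug minus control on the log2 scale, within each row of the slide, after scaling (filled) and without it (open). Unscaled row 2 values are -0.06 under risperidone and 0.05 under clozapine. Right, the log2 fold change of miR-290 under each processing setting and without each control array. All values on the right are above 0, from 0.50 to 2.37.

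The other 10 members gave no such signal. They were covered by 26 probes and 20 spots per miRNA on each array, and each was called not detected on all 8 arrays in the deposited gene-level files, where such entries hold the value 0.1. Of their 1600 spots, 3 were well above background (0.188%), against 0.0603% of the spots of 446 other miRNAs detected on no array and 0.202% of negative control spots. These 3 spots belonged to miR-291a-5p and miR-292-5p on control replicate 2 and to miR-293-5p on haloperidol replicate 2. No neighbour passed the detection filter, so limma tested 0 of 10. On the scaled log2 scale all 80 of their values lay at or below the floor of -6.22, the lowest level used, and no fold change is given for any of them. The lowest deposited signal of any miRNA called detected was 3.29 and 2.55 on the haloperidol arrays, 3.78 and 3.0 on the risperidone arrays and 2.85 and 2.84 on the clozapine arrays, against 2.88 and 3.0 in the controls. A change of a neighbour below this signal was not detectable. These deposited signals are on another scale than the summed probe signals given below for the neighbours. For miR-290 on haloperidol replicate 1 the deposited signal was 295.3 and the summed signal 435.8.

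The probe means of the 10 neighbours ran from -8.69 to 4.72 intensity units, with a median of -3.59, and 15 of 208 were above 0 (7.21%). The median over their 26 probes was -4.22 and -3.32 under haloperidol, -3.73 and -4.16 under risperidone and -3.15 and -4.99 under clozapine, against -1.80 and -2.43 in the controls. The probes of other undetected miRNAs shifted in the same way, with medians of -4.41 and -4.22 under haloperidol, -4.27 and -5.14 under risperidone and -4.13 and -5.80 under clozapine, against -2.47 and -3.43 in the controls. In both sets of probes the median of every drug array was lower than that of either control array. Control replicate 1 had the highest background-level signal.

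**Figure D4:**
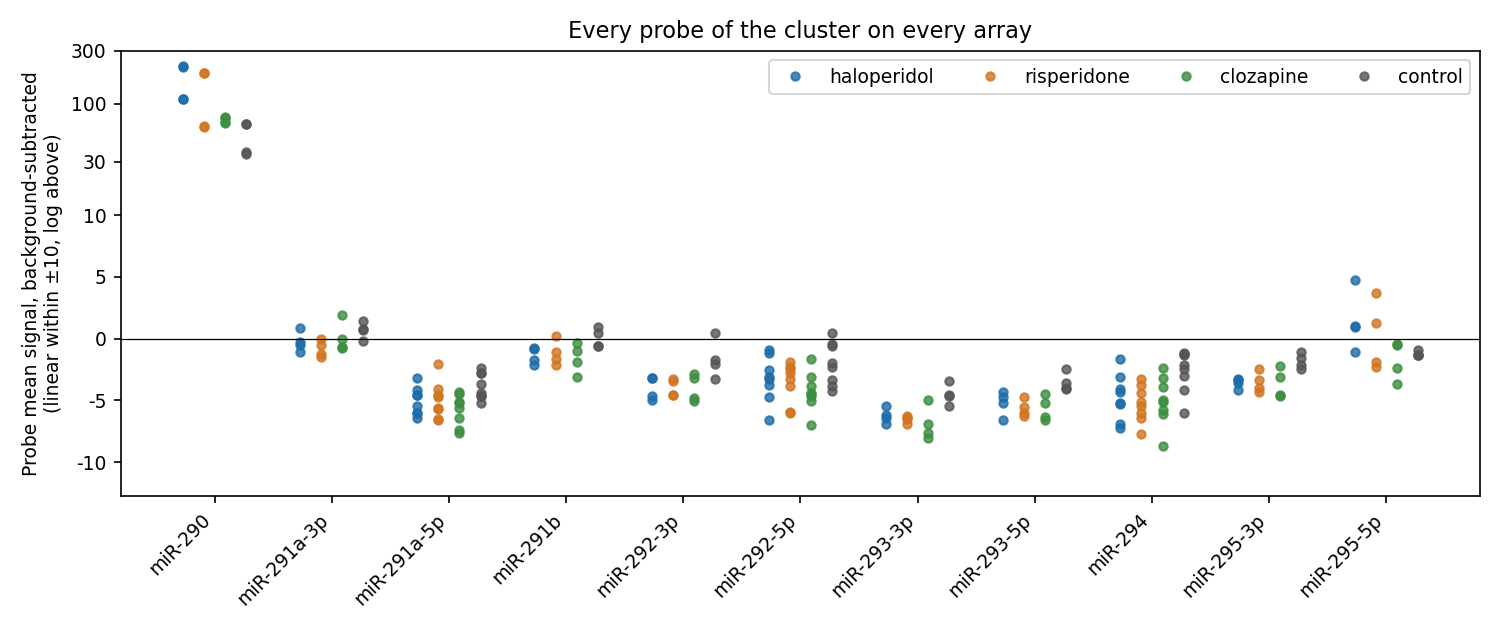
Each point is the mean background-subtracted signal of 1 probe on 1 array, in intensity units, for the 11 members of the cluster, coloured by group; the axis is linear within ±10 and logarithmic above. The probes of miR-290 lie between 35.4 and 219.3 and those of the 10 neighbours between -8.69 and 4.72.

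Among the 5′-arm relatives, miR-292-5p and miR-293-5p, which share the whole miR-290 seed, stayed below background on the arrays where miR-290 was brightest. The summed signal over the probes of miR-292-5p ranged from -20.3 to -8.01 over the 8 arrays and that of miR-293-5p from -12.9 to -6.55. miR-294, which carries the 5′-arm motif 1 base earlier, ranged from -23.7 to -8.80.

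miR-295-5p held the highest single probe mean of the neighbours, on haloperidol replicate 1, and was below 0 on most arrays. Its summed signal was 5.65 and -0.04 under haloperidol, 5.02 and -4.20 under risperidone and -0.93 and -6.05 under clozapine, against -2.61 and -2.17 in the controls. The 2 arrays above 0, haloperidol replicate 1 and risperidone replicate 1, were those with the highest unscaled miR-290. The signal came mainly from probe A_26_P00002842, with 4.72 ± 2.70 and 3.73 ± 1.10 on these arrays (SD over spots), where the scanner software called 7 and 10 of its 10 spots positive and significant. The same flag stood on 3.45% of the spots of other undetected miRNAs and on 51.9% of negative control spots, so it does not by itself mark a miRNA signal on these arrays. The other probe, A_26_P00002843, gave 0.93 ± 1.41 and 1.29 ± 1.10 there. No spot of either probe was well above background, and the groups overlapped. The longest single run that miR-295-5p shares with miR-290 is 6 bases, CUCAAA. A separate run, GGGGCAC, matches bases 25 to 31 of the Mir290 hairpin, across the 3′ end of mature miR-290. The pattern of miR-295-5p over the arrays was noticed in the values and was not tested.

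Among the 3′ arms are the members with the AAGUGC motif and, in mouse stem cells, the main products of the cluster. The Mir294 hairpin had no 3′-arm entry on the array. The summed signal of miR-291a-3p ranged from -2.0 to 1.87 over the 8 arrays, that of miR-291b from -4.93 to 0.37, that of miR-292-3p from -9.89 to -1.56 and that of miR-295-3p from -9.17 to -2.69. All 160 spots of each were below the level called well above background. The probes of miR-292-3p, whose first 17 bases also occur in the opposite arm of the miR-290 hairpin, gave means between -5.05 and 0.47. miR-291a-5p and miR-293-3p, the remaining arms, ranged from -26.6 to -12.5 and from -15.7 to -8.10.

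The same motif is carried by miRNAs from other loci that C6 cells do express. Of 641 array miRNAs with a RefSeq sequence, 10 held AAGUGC in the first 8 bases (1.56%), 4 of them in the cluster. Of the other 6, miR-17-5p, miR-20a-5p, miR-20b-5p, miR-93-5p and miR-106b-5p, which promote growth and act on cell-cycle genes, were detected on all 8 arrays, and miR-105 on 0. None of these 5 passed the limma test under any drug (0 higher and 0 lower, with 0.0% of all tested miRNAs called). Their median log2 fold change was 0.25 under haloperidol, 0.15 under risperidone and 0.18 under clozapine, against -0.15, -0.15 and -0.17 over all tested miRNAs, with miR-106b-5p highest at 0.52, 0.44 and 0.40 and miR-93-5p lowest at -0.17, -0.25 and -0.33. No array entry matched the list of other stem-cell miRNAs, among them the miR-302 family, which shares the motif, so that family was not analysed.

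Marker miRNAs of other cell types were followed beside miR-290. Of the neuronal list 3 of 7 were detected, all of them miR-129 arms, while miR-124 and miR-137 were detected on 0 arrays; the 3 had median log2 fold changes of -0.29, -0.42 and -0.28 under haloperidol, risperidone and clozapine. Of the oligodendrocyte list 3 of 5 were detected, with medians of 0.82, 0.59 and 0.10. Within it miR-338-3p was at 1.02, 1.09 and 1.08 and miR-338-5p, the opposite arm of the same hairpin, at -0.90, -1.17 and -1.26. Of the microglial and leukocyte list 4 of 6 were detected on at least 1 array and 3 were tested, with medians of -0.52, -0.31 and -0.60. Of the erythrocyte and serum list 1 of 4 was detected, miR-451-5p on 2 arrays, and 0 were tested. In each list 0 miRNAs passed in either direction under any drug in the limma fit over all 8 arrays. With the replicate number as a block, miR-338-5p passed as lower under risperidone (limma adjusted p = 0.044) and clozapine (0.0324). From the leukocyte list, miR-150-5p was detected on only 5 arrays. Without control replicate 2, which left control replicate 1 as the only control array, its log2 fold change was -0.943 under haloperidol. Its values under risperidone and clozapine were identical, at -0.946 here and -0.598 in the fit over all 8 arrays. Arrays at the floor share 1 value, so this identity is not read as agreement between the drugs. The part of these cell types in the miR-290 values was not tested.

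Over the 8 arrays, the profile of miR-290 was set against those of the 184 non-members detected on all arrays. The 5 most alike by Pearson's r on the scaled log2 levels were miR-487b-3p (r 0.93, Spearman's rho 0.93), miR-21-3p, the less abundant arm of the growth-promoting miR-21 (0.90, 0.88), miR-338-3p, known from oligodendrocytes (0.87, 0.69), miR-551b-5p (0.87, 0.60) and miR-30e-5p (0.81, 0.60). Without the 2 arrays on which miR-290 lay farthest from its median, control replicate 1 and risperidone replicate 1, r was 0.83, 0.63, 0.46, 0.56 and 0.17 in the same order. The likeness therefore rested in large part on these arrays for miR-338-3p and miR-30e-5p, and least for miR-487b-3p. These arrays share a slide, groups and scaling, so the values are a description.

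The scaled level of miR-487b-3p was -4.00 and -3.90 under haloperidol, -3.74 and -3.34 under risperidone and -4.09 and -4.12 under clozapine, against -6.22, the floor, and -4.33 in the controls. That of miR-21-3p was -1.11 and -0.90 under haloperidol, -0.70 and -0.35 under risperidone and -1.11 and -0.85 under clozapine, against -2.82 and -1.16 in the controls. In both, as in miR-290, control replicate 1 was lowest and the drug arrays lay above both controls. Control replicate 2 lay closer to the lowest drug array in both than in miR-290, where it was at -2.87 against -2.39 on clozapine replicate 1. In limma the adjusted p of these 5 miRNAs was 0.581 under haloperidol, 0.454 to 0.511 under risperidone and 0.326 to 0.573 under clozapine, so none passed in the fit over all 8 arrays. Without control replicate 2, control replicate 1 was the only control array left. The log2 fold change of miR-487b-3p was then 2.27 under haloperidol, 2.68 under risperidone and 2.11 under clozapine. That of miR-21-3p was 2.30 under risperidone and 1.84 under clozapine. These 5 miRNAs were picked for their likeness to miR-290, itself chosen for higher signal under the drugs, so their direction follows from the choice.

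**Figure D5:**
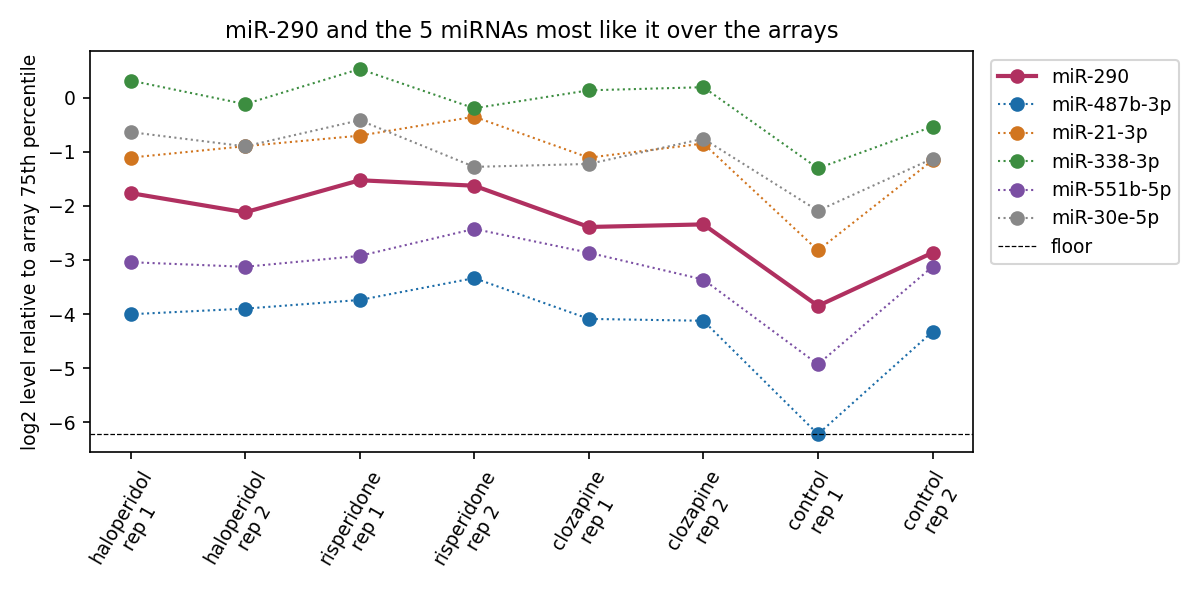
The scaled log2 level, relative to the array's 75th percentile, of miR-290 (solid line) and the 5 miRNAs with the highest Pearson correlation to it over the 8 arrays (dotted). Lines only join points of 1 miRNA. Control replicate 1 is the lowest array for all 6, and miR-487b-3p lies at the floor of -6.22 there.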

How the data were processed

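The values deposited by the authors are Cy3 intensity readings on a linear scale without normalization across arrays, made with Agilent Feature Extraction 10.7.3.1 per the file headers; the deposited flags are 0 or 1. The gene-level files hold 0.1 for every entry not detected. No spot was saturated.

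Background-subtracted spots without outlier flags were averaged per probe and summed over the probes of a miRNA, scaled to the 75th percentile of each array (from 291 probes well above background throughout), given a lower limit of 0.0134, which is the 5th percentile among detected miRNAs after scaling, and converted to log2. A miRNA was tested if some group had it detected on both of its arrays, which left 243. limma 3.58.1 (R 4.3.3) fitted group means to the 8 arrays together by lmFit and eBayes, with two-sided p-values adjusted by Benjamini-Hochberg. The fit was also run on simulated arrays with known changes under haloperidol only. Those arrays varied independently, so they do not cover deviations shared by arrays of the same replicate number. With 2 arrays a group, an exact permutation test has a smallest two-sided p of 0.333, and none was run. The number of arrays limits the precision. Longest shared runs were counted in Python 3.11.15 over RefSeq mature sequences of 641 array miRNAs matched by name.

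The named miRNAs are all members, the 5 non-members most correlated with miR-290, miRNAs sharing a member's seed, and detected members of the marker and miR-17-type lists. Members and lists were chosen with earlier results of these data known. Lists of neuronal, oligodendrocyte, leukocyte and serum miRNAs had 0 calls in the main setting. Alternatives changed scaling, background correction, probe summary, detection filter, floor, arrays fitted and replicate block, and left out each array. Normexp used spot medians.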

Additional observations from a re-analysis of the deposited data

How the results depend on the processing

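The log2 fold change of miR-290 stayed above 0 under all 11 other settings for each drug, from 0.75 to 1.67 with haloperidol, 1.16 to 2.37 with risperidone and 0.56 to 1.64 with clozapine. The lower floor, both changes of detection filter, the fit of only the 2 groups compared and the replicate block gave the main values. These settings could not move miR-290, which lay above the floor on every array, with 2 arrays in each group. The fold change moved by more than the residual SD of 0.37 with the percentile over all probes (2.37 with risperidone, 1.64 with clozapine), without scaling (1.16 with risperidone, 0.56 with clozapine) and with normexp (0.75 with haloperidol, 1.24 with risperidone). Leaving out 1 array gave 0.92 to 1.91 with haloperidol, 1.29 to 2.27 with risperidone and 0.50 to 1.48 with clozapine, the lowest without control replicate 1 and the highest without control replicate 2. The number of miRNAs called by limma was 0 under each drug in all other settings but the replicate block and the fit without control replicate 2. Leaving out 1 array gave 0 to 5 calls with haloperidol, 0 to 6 with risperidone and 0 to 7 with clozapine. In these fits the lone array of a group is assumed to vary like the other groups. Unadjusted, 60, 60 and 65 had a p under 0.05 without control replicate 2. The replicate number only names the arrays and their slide row: with the replicate block the calls were 0 with haloperidol, 1 with risperidone (miR-338-5p) and 2 with clozapine (miR-338-5p and miR-3561-5p), named after their values were seen, and the miR-290 value was the same. Deviations of same-numbered drug and control arrays correlated at 0.574, 0.162 and 0.714 over 243 miRNAs. The 10 neighbours were at the floor in all 80 values without the detection filter, so no other member could be tested in that setting. For both miR-290 probes the difference stayed above 0 for each drug without scaling, with spot medians and with normexp; why the values moved was not tested.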
